A study of Danio rerio with 40 samples.

Results

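Sperm of zebrafish males that met Low competition in the second period (Low2) was compared with sperm of males that met Low competition in the first period (Low1). The libraries were taken by the prefix of their column in the deposited tables, which gave 9 Low2 and 10 Low1 libraries among the 39 libraries of the miRNA table, and 6 Low2 and 6 Low1 libraries among the 24 of the piRNA table. All fish were adults of the AB wild-type strain. Low2 males had first spent 2 weeks in a High tank (2 males and 1 female) and then 2 weeks in a Low tank (1 male and 2 females). Low1 males were sampled after their first 2 weeks, which they spent in a Low tank. The Low condition itself was thus shared, while the males, the sampling period and the earlier stay in a High tank all changed together between Low2 and Low1 and cannot be told apart. The treatment field of the public record named the same group as the column prefix for 1 of 9 Low2 and 6 of 10 Low1 miRNA libraries, and for 1 of 6 Low2 and 4 of 6 Low1 piRNA libraries, so that field was not used for grouping. For all the remaining Low2 libraries of both tables the field read High2. For the remaining Low1 libraries it read High2, Low2 or High1. A 10th Low2 sample was not analysed here.

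Mature sperm transcribes little and carries small RNAs made earlier in the testis or taken up on the way out. MicroRNAs (miRNAs) are short RNAs that guide Argonaute proteins to messenger RNAs and lower their translation or stability, and each hairpin precursor can release a 5p and a 3p arm, of which usually only one accumulates. Piwi-interacting RNAs (piRNAs) are germline small RNAs that guide Piwi proteins against transposable elements, and they are cut from long precursors transcribed from genomic clusters. Both kinds are carried to the egg at fertilisation.

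Each library came from the sperm of an individual male. The spread within Low2 or within Low1 therefore joins differences between males with those of library, depth and pool. The miRNA libraries held 133035 to 5303390 reads in Low2 (median 2218558) and 79435 to 8447142 in Low1 (median 2641870.5), and 2 libraries of each group had fewer than 500000. Between 234 and 307 of the 346 miRNAs had reads in a Low2 library and between 176 and 312 in a Low1 library. Values are given as normalised reads, the read count divided by a size factor of the library. A single read was worth 0.371 to 12.4 normalised reads in Low2 and 0.302 to 36.8 in Low1, so low miRNAs were not resolved in the shallowest libraries. In the piRNA table the Low2 libraries held 5983071 to 38109310 reads and the Low1 libraries 26806298 to 42483801. There a single read was worth 0.653 to 16.0 normalised reads in Low2 and 0.573 to 1.47 in Low1. Sperm libraries were sequenced in 5 pools, and each pool held 1 or 2 Low2 and 1 to 3 Low1 miRNA libraries. In the piRNA table, pool 3 held 2 Low2 and 0 Low1 libraries, and pool 4 held 1 Low2 and 3 Low1 libraries. Pool and group therefore cannot be fully told apart in the piRNA comparisons.

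The most abundant sperm miRNAs had similar medians in both groups. dre-miR-2189, a fish miRNA, led with 191069 to 1440920 normalised reads in Low2 (median 561019), against 209278 to 2030380 in Low1 (median 539148). dre-let-7a, of the let-7 family that opposes proliferation and marks differentiated cells, had 146534 to 316327 in Low2 (median 265797) and 183491 to 325695 in Low1 (median 255989). dre-miR-92a-3p, of the miR-17-92 cluster, had a median of 110404 normalised reads in Low2 and 118189 in Low1, dre-miR-22a-3p 117235 in Low2 and 111236 in Low1, and dre-miR-100-5p 113153 in Low2 and 107899 in Low1. The groups overlapped for each of these 5 miRNAs. Over all miRNAs the groups were compared with limma on the deposited log2 values, in 1 fit of all 4 treatment groups. Libraries taken after High competition, met first (High1) or second (High2), thus also set the spread of that fit. Males were sampled in both periods, and the fit counted all libraries as independent. With a Benjamini-Hochberg adjusted p under 0.05 as the threshold it called 0 of 346 miRNAs (0%). Before adjustment, p was below 0.05 for 22 (6.36%), of which 16 were higher in Low2. The smallest adjusted p was 0.577, and the exact permutation test of ranks, used in place of limma, likewise called 0, with 10 miRNAs at an unadjusted p below 0.05. No miRNA had groups that did not overlap (0 of 346, 0%). The paper, which used DESeq2, reported no differentially expressed miRNA between Low1 and Low2. Log2 fold changes are differences of group means on the scale of log2 (normalised reads + 4), which understates changes of low miRNAs. The median log2 fold change of all 346 was 0.05, and 201 were higher in Low2.

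Single libraries stood apart in both groups. Each was set against the median of all other Low2 and Low1 libraries. Low2_6 had 34 miRNAs more than 2 log2 units above it and 1 below, and Low2_7 35 above and 9 below. Low1_1 (79435 reads) had 7 above and 38 below, and Low1_3 (166612 reads) 14 above and 24 below. In a set of miRNAs, 2 of the 9 Low2 libraries, Low2_6 and Low2_7, lay far above the other 17 libraries. The clearest case was dre-miR-30e-3p, the 3p arm of a miR-30 hairpin, which had 182040 normalised reads in Low2_6 and 167726 in Low2_7, against 2323 to 4397 in the other Low2 libraries and 1830 to 4938 in Low1. dre-miR-182-5p had 22222 and 30933 in these 2 libraries, against 313 to 1059 in the other Low2 libraries and 165 to 930 in Low1. dre-miR-183-5p had 30079 and 50150, against 916 to 2160 in the other Low2 libraries and 768 to 2477 in Low1. Both come from the cluster of miR-183, miR-96 and miR-182, known for its expression in sensory hair cells and retina. dre-miR-10b-5p, whose gene lies in a Hox cluster, had 96101 in Low2_6 and 139181 in Low2_7, against 3487 to 11821 in the other Low2 libraries and 3485 to 7981 in Low1. dre-miR-184, known from lens and cornea, was also raised in a further Low2 library. It had 26637 in Low2_6 and 58169 in Low2_7, 1092 to 19551 in the other Low2 libraries and 1953 to 8502 in Low1.

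**Figure D1:**
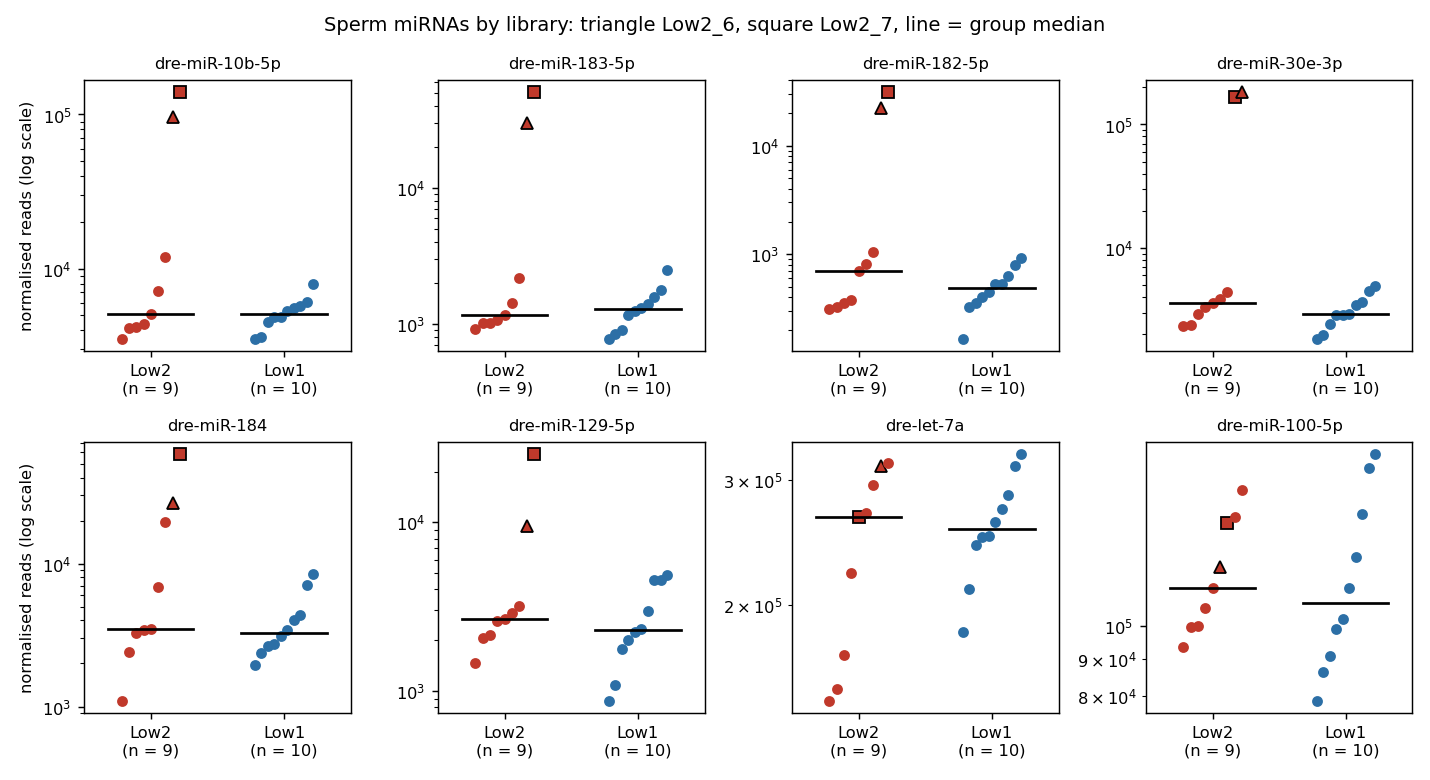
Normalised reads (log scale, vertical axis) of 8 miRNAs in each Low2 library (red, left, n = 9) and Low1 library (blue, right, n = 10). The black lines are group medians. For dre-miR-10b-5p, dre-miR-183-5p, dre-miR-182-5p and dre-miR-30e-3p, Low2_6 (triangle) and Low2_7 (square) stand far above the other libraries, which share a range in both groups (dre-miR-10b-5p 96101 and 139181, against 11821 or less), and dre-let-7a and dre-miR-100-5p show no such gap.

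A threshold of 2 log2 units above the median of the other 17 libraries was passed in both Low2_6 and Low2_7 by 24 miRNAs, and for 21 of them both libraries were above all 17 others. The threshold was chosen after the values were seen, and these counts are a description with no test. The reverse, 2 log2 units below the median in both libraries, was met by 2 miRNAs, dre-miR-15b-3p and dre-miR-23b-5p, with medians of 22.0 and 12.2 normalised reads in the other 17 libraries and at most 2.49 in these 2. For 1 of the 24, dre-miR-30a-3p, the median of the others was 0. The remaining 23 were above that median by 4.07-fold to 89.1-fold in Low2_6 (median 11.8-fold) and by 4.89-fold to 68.8-fold in Low2_7 (median 17.0-fold). The 89.1-fold was that of dre-miR-363-5p, a low miRNA with a median of 0.741 normalised reads in the other 17 libraries. It had 66.0 in Low2_6 and 17.6 in Low2_7, where a read was worth 5.87 normalised reads. The 23 included the 5p arms dre-miR-10a-5p, dre-miR-10b-5p, dre-miR-10c-5p and dre-miR-10d-5p, a pair of 3p arms of miR-181a (dre-miR-181a-5-3p, dre-miR-181a-2-3p), and the endocrine pancreas miRNA dre-miR-375. Among abundant miRNAs, dre-miR-92a-3p had 314354 in Low2_6 and 417679 in Low2_7, above the 52487 to 218405 of Low1, and dre-let-7g had 111871 and 89430, against 26930 to 61375 in Low1. In contrast, dre-let-7a had 313192 normalised reads in Low2_6 and 265797 in Low2_7, both inside the Low1 range of 183491 to 325695.

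**Figure D2:**
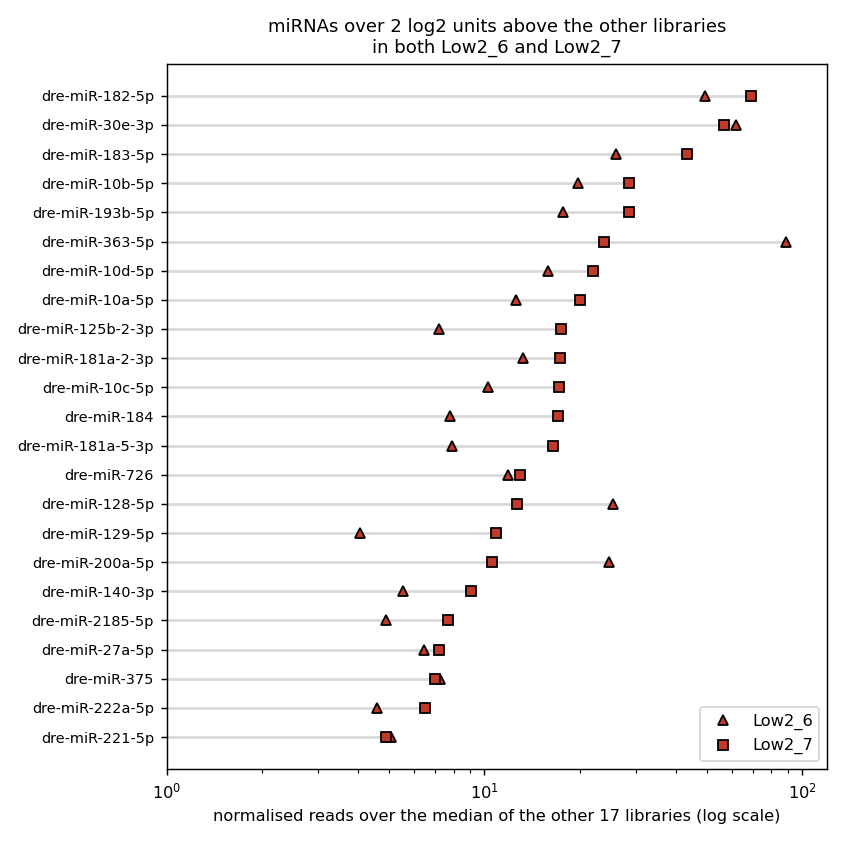
Fold of normalised reads over the median of the other 17 Low2 and Low1 libraries (horizontal axis, log scale) in Low2_6 (triangles) and Low2_7 (squares) for 23 of the 24 miRNAs that passed 2 log2 units in both libraries (the other, dre-miR-30a-3p, had a median of 0). In Low2_7 dre-miR-182-5p and dre-miR-30e-3p lead, with 68.8-fold and 56.9-fold (49.4-fold and 61.8-fold in Low2_6). The highest fold in Low2_6, 89.1-fold, is that of dre-miR-363-5p, whose median in the other 17 libraries was 0.741 normalised reads.

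The gain was not shared by all products of a hairpin, cluster or family. Of the miR-30e hairpin, dre-miR-30e-5p had 299 normalised reads in Low2_6 and 241 in Low2_7, inside the range of Low1 (median 367, highest 955), beside the 182040 and 167726 of its 3p arm. In the cluster of miR-183, miR-96 and miR-182, dre-miR-96-5p had 79.7 and 70.4 normalised reads in Low2_6 and Low2_7, with a median of 70.4 in Low2 and 82.9 in Low1, although dre-miR-183-5p and dre-miR-182-5p were raised. In the miR-10, miR-99 and miR-100 family, dre-miR-10a-5p had 121828 in Low2_6 and 193690 in Low2_7, against a Low1 range of 3701 to 17736. dre-miR-99 had 6306 and 6711 in the same libraries, below the 7486 to 19917 of Low1, and dre-miR-100-5p had 121120 and 139610, within 78629 to 173934 in Low1. dre-miR-200a-5p, an arm of an epithelial miRNA, had 1398 in Low2_6 and 598 in Low2_7, against 28.7 to 204 in Low1, but Low2_2 held 1039 as well. Its partner dre-miR-200a-3p had 3978 in Low2_6 and 3156 in Low2_7, with a median of 3931 in Low2 and 4717 in Low1.

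The study picked 7 miRNAs by comparing High2 with Low2, and dre-miR-10b-5p also by comparing High2 with Low1. The Low2 libraries therefore entered the choice of all 7, and their direction here is not independent evidence. The paper itself described higher expression of all 7 in the libraries it labels Low2_6 and Low2_7. None of the 7 passed the test (0 of 7, against 0% of all miRNAs). The log2 fold change of dre-miR-10b-5p was 1.05 (standard error, SE, 0.55, limma adjusted p = 0.577), while its median was 5046 normalised reads in Low2 and 5107 in Low1. dre-miR-183-5p had a log2 fold change of 1.04 (SE 0.62, limma adjusted p = 0.630) and a median of 1159 in Low2, below the 1270 of Low1. The log2 fold change of dre-miR-193b-5p was 1.14, with 25.5 to 956 normalised reads in Low2 (median 52.5) and 19.4 to 143 in Low1 (median 33.3). dre-miR-184 had a log2 fold change of 0.85 and medians of 3510 in Low2 and 3274 in Low1. dre-miR-129-5p, from a brain-enriched family, had 1457 to 25313 in Low2 (median 2657), against 870 to 4884 in Low1 (median 2293), and a log2 fold change of 0.60. For dre-miR-181a-5-3p the range was 298 to 6764 in Low2 (median 421) and 324 to 841 in Low1 (median 459), with a log2 fold change of 0.49. dre-miR-200a-5p had medians of 57.0 in Low2 and 58.6 in Low1, with a log2 fold change of 1.08. Limma adjusted p for these last 5 lay between 0.630 and 0.757. Each of the 7 moved by more than 1.5 times when a single library was left out. Without Low2_7 the log2 fold change was 0.58 for dre-miR-10b-5p, 0.50 for dre-miR-183-5p, 0.46 for dre-miR-184, 0.25 for dre-miR-129-5p and 0.08 for dre-miR-181a-5-3p, that of dre-miR-193b-5p was 0.73, and without Low2_6 it was 0.67 for dre-miR-200a-5p. Without both libraries it was 0.06 for dre-miR-10b-5p, 0.11 for dre-miR-184, 0.00 for dre-miR-129-5p and 0.32 for dre-miR-200a-5p, that of dre-miR-193b-5p was 0.30, and it was of the other sign for dre-miR-183-5p (-0.08) and dre-miR-181a-5-3p (-0.30).

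A model of the reads themselves gave another count. In a negative binomial likelihood-ratio test on reads recovered from the deposited values, added after the data were seen, 12 of the 342 miRNAs with reads (3.51%) had an adjusted p under 0.05, all higher in Low2. The 12 were dre-miR-10a-5p, dre-miR-10b-5p, dre-miR-10c-5p, dre-miR-10d-5p, dre-miR-140-3p, dre-miR-182-5p, dre-miR-183-5p, dre-miR-184, dre-miR-200a-5p, dre-miR-30e-3p, dre-miR-375 and dre-miR-726, and all were among the 24 raised in Low2_6 and Low2_7. The smallest adjusted p of this negative binomial model was 0.00275. Their ratios of medians, Low2 over Low1, ran from 0.913 to 1.42 (median 1.12), and 4 of the 12 were below 1. Without Low2_6 the model called 4 of 342 (1.17%), all 4 among the 12. It called 0 without Low2_7, where 33 had an unadjusted p below 0.05, and 0 without both libraries, where 12 did. This model took a single dispersion per miRNA from all 4 treatment groups as well, with libraries counted as independent. Spreads of called miRNAs were unequal, with a log2 SD of 2.57 in Low2 and 0.46 in Low1 for dre-miR-30e-3p. For dre-miR-182-5p it was 2.59 in Low2 and 0.70 in Low1. The p-values of this model are therefore approximate.

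Low2_6 and Low2_7 were the Low2 libraries of pool 5, which is a batch of sequencing and gel selection. Its Low1 library, Low1_7, had 5560 normalised reads of dre-miR-10b-5p and 892 of dre-miR-183-5p, inside the range of the other Low1 libraries. Among the High libraries the highest values of dre-miR-10b-5p were also in pool 5, with 61358 in High1_7 and 55414 in High1_8, against 14796 or less in the other 18 High libraries. The 3 High2 libraries of pool 5 had 4836 to 6599. High1_7 and High1_8 also led the High libraries for dre-miR-183-5p (18314 and 14217) and dre-miR-182-5p (8867 and 9015). They did so too for dre-miR-30e-3p (59261 and 83458) and dre-miR-184 (22023 and 23245). The other 18 High libraries had at most 2916, 1245, 9832 and 16836 of these miRNAs, in that order. Low2 and High1 libraries came from males that met High first, and Low1 and High2 libraries from males that met Low first. Each male met both treatments, so a High1 and a Low2 library can come from the same male. The parts of the pool, of the order and of the male in these values were not tested. Within the other pools the Low2 minus Low1 difference of dre-miR-10b-5p on the log2 scale was -0.31 (pool 1, n = 2 and 2), -0.62 (pool 2, n = 1 and 3), 0.38 (pool 3, n = 2 and 1) and 0.84 (pool 4, n = 2 and 3), against 4.38 in pool 5 (n = 2 and 1). These within-pool differences were not tested. With pool as a covariate in the limma fit the log2 fold change of dre-miR-10b-5p was 0.89, and 0 miRNAs were called (24 at an unadjusted p below 0.05).

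Means and medians gave different pictures. Of the 206 miRNAs with a median of at least 10 normalised reads in both groups, the Low2 mean was more than 1.5 times the Low1 mean for 46, but the Low2 median was more than 1.5 times the Low1 median for 15. Means were lower by the same factor in Low2 for 10 and medians for 8. For 12 miRNAs the Low2 mean was more than 3 times the Low1 mean, and for 0 the median was. The ratio of means and the ratio of medians lay on opposite sides of 1 for 50 of the 206. The largest excess of one ratio over the other was that of dre-miR-30e-3p, with a ratio of means of 13.2 and a ratio of medians of 1.24. dre-miR-182-5p had a ratio of means of 12.4 and of medians of 1.42, dre-miR-183-5p 7.38 and 0.913, dre-miR-10b-5p 5.89 and 0.988, and dre-miR-200a-5p 4.85 and 0.973. These ratios are descriptions, with no test.

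**Figure D3:**
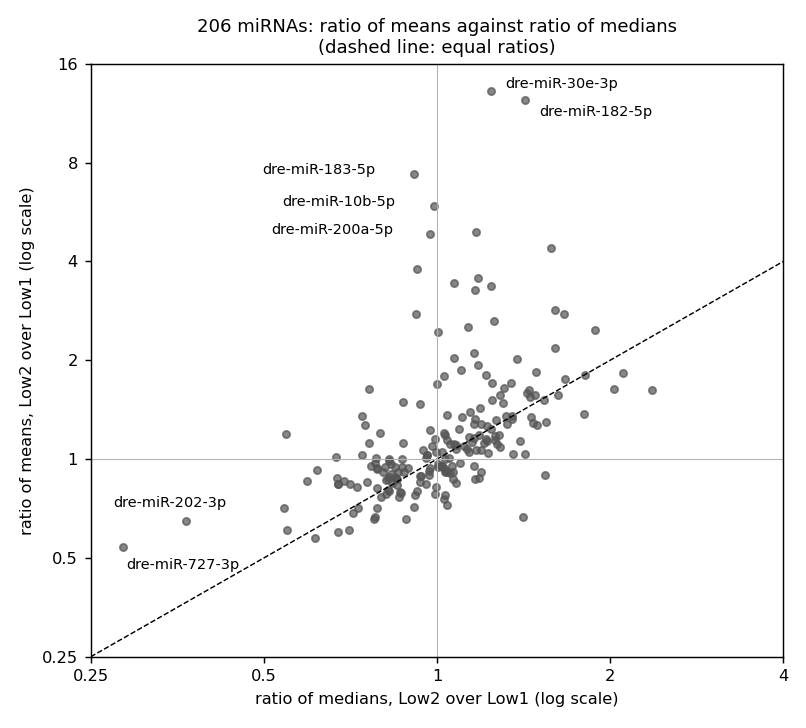
Ratio of means (vertical axis, log scale) against ratio of medians (horizontal axis, log scale), Low2 over Low1, for the 206 miRNAs with a median of at least 10 normalised reads in both groups. The points high above the dashed line of equal ratios, such as dre-miR-30e-3p at 13.2 and 1.24, have a Low2 mean far above the Low1 mean and medians that lie close.

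The miRNAs with the smallest p were mostly low in reads. dre-miR-129-3p, the arm opposite dre-miR-129-5p, had 10.8 to 49.6 normalised reads in Low2 (median 18.9) and 0 to 16.9 in Low1 (median 10.0), a log2 fold change of 1.00 (SE 0.36, limma p = 0.00925, adjusted p = 0.577). The groups overlapped, and a single read was worth 36.8 normalised reads in the Low1 library listed at 0, Low1_1. dre-miR-129-3-3p, an arm of another miR-129 copy, had 1.25 to 24.8 in Low2 (median 7.79) and 0 to 9.20 in Low1 (median 2.75), with a log2 fold change of 0.84. dre-miR-23b-3p had 41.2 to 123 in Low2 (median 66.5) and 0 to 134 in Low1 (median 44.9), with a log2 fold change of 1.18. The Low1 libraries at 0 were Low1_1 and Low1_3, where a read was worth 36.8 and 11.0 normalised reads, and the log2 ratio of the negative binomial model was 0.46. dre-miR-23b had 37.6 to 117 in Low2 and 0 to 106 in Low1, with the same libraries at 0, a log2 fold change of 1.10 and a negative binomial log2 ratio of 0.44. The 2 names had nearly the same reads in each library (198 and 179 in Low2_9), and a read may be counted under both. dre-miR-7146-5p had no more than 12 reads in any Low2 library and 15 in any Low1 library (log2 fold change 0.72), and dre-miR-203a-5p, of the skin family miR-203, no more than 13 reads in Low2 and 5 in Low1 (log2 fold change 0.55, or 0.34 without Low2_6).

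On the lower side in Low2, dre-let-7b had 8109 to 13685 normalised reads in Low2 (median 12173) and 10106 to 42048 in Low1 (median 17336). Its log2 fold change was -0.62 (SE 0.26, limma p = 0.0217, adjusted p = 0.577). dre-miR-202-3p, an arm of a gonad miRNA of the testis and ovary of fish, had 78.2 to 790.0 in Low2 (median 111) and 120 to 638 in Low1 (median 305), with a log2 fold change of -0.88. The other arm, dre-miR-202-5p, had a median of 1576 in Low2 and 2030 in Low1 and a log2 fold change of -0.39. dre-miR-25-5p, the minor arm of a miR-17-92 relative, had 0 to 19.9 in Low2 (median 6.72) and 3.47 to 36.8 in Low1 (median 14.3), with a log2 fold change of -0.89. dre-miR-216a, a pancreas miRNA, had 5.18 to 49.9 in Low2 and 12.7 to 73.6 in Low1, a log2 fold change of -0.75. dre-miR-130c-5p had 0 to 174 in Low2 and 74.5 to 330.5 in Low1 (log2 fold change -0.89), and its single 0 was that of Low2_7, where a read was worth 5.87 normalised reads. Without Low2_7 its log2 fold change was -0.41, and without Low2_6 and Low2_7 it was -0.21. The negative binomial log2 ratio was -0.51. dre-miR-457b-3p had 0 to 3.61 in Low2 and 0 to 22.0 in Low1 (log2 fold change -0.61). All 12 had an adjusted p of 0.577, and each overlapped between the groups.

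By family, no list held a miRNA past the adjusted threshold, where the share over all miRNAs was 0%. Over all miRNAs, 201 of 346 (58.1%) were higher in Low2. The median log2 fold change of all 346 was 0.02 without Low2_6 and Low2_7. In the miR-10, miR-99 and miR-100 family 8 of 13 members were higher in Low2, and the median of their log2 fold changes was 0.04, beside 0.05 over all 346 miRNAs, and 0 had an unadjusted p below 0.05. The list of miR-129, miR-184, miR-193 and miR-365, which joins several families, had 9 of 10 members higher in Low2 and a median of 0.84. An unadjusted p below 0.05 was reached by 4 members, against 6.36% of all miRNAs. These were dre-miR-129-3p, dre-miR-129-3-3p, dre-miR-129-1-3p and dre-miR-193b-3p. The list holds dre-miR-129-5p, dre-miR-184 and dre-miR-193b-5p, which the study picked with the Low2 libraries. Its counts are therefore not independent evidence. Without Low2_6 and Low2_7 the median of this list was 0.38. The let-7 family had 5 of 11 higher in Low2 and a median of -0.13, with 1 at an unadjusted p below 0.05, and the 2 arms of miR-202 were at -0.39 and -0.88, with 1 below. In the miR-30 family 5 of 8 were higher, with a median of 0.28, or 0.08 without the 2 libraries, and 2 had an unadjusted p below 0.05. The miR-17-92 families had 17 of 26 higher, a median of 0.07 and 3 at an unadjusted p below 0.05. The miR-181 family had 9 of 12 higher, a median of 0.23, or -0.04 without the 2 libraries, and 1 at an unadjusted p below 0.05. In the miR-430 family, which clears maternal messages in the early embryo, 12 of 13 were higher, with a median of 0.06, but 9 of these carry identical values and all were low, dre-miR-430b-3p having a median of 21.4 normalised reads in Low2 and 13.9 in Low1. The miR-200 family had 5 of 10 higher and a median of -0.04, the miR-34 family 2 of 4 and -0.11, the miR-26 family 2 of 4 and -0.11, and the miR-125 family 4 of 7 and 0.02. The cluster of miR-183, miR-96 and miR-182 had 3 of 6 higher and a median of 0.03. In these 5 lists and the miR-430 family 0 had an unadjusted p below 0.05.

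Markers of the other cells that a sperm sample can hold did not separate the groups by their sums. Red blood cell miRNAs summed to 236 to 725 normalised reads in Low2 (median 518) and 274 to 2760 in Low1 (median 444). For dre-miR-451, an erythrocyte miRNA, the medians were 6.23 in Low2 and 55.2 in Low1, with a log2 fold change of -1.50 (limma p = 0.206). Its log2 ratio in the negative binomial model was -2.89 (negative binomial unadjusted p = 0.0350, adjusted p = 0.332). White blood cell and endothelial miRNAs summed to 148 to 458 in Low2 and 137 to 1120 in Low1, muscle miRNAs to 503 to 1124 in Low2 and 406 to 1476 in Low1, and smooth muscle miRNAs to 141.4 to 903 in Low2 and 88.1 to 989 in Low1. Neural miRNAs summed to 7213 to 23658 in Low2 and 10340 to 24158 in Low1, epithelial and skin miRNAs to 14115 to 96515 in Low2 and 14023 to 61797 in Low1, and liver and gut miRNAs to 2323 to 6150 in Low2 and 2104 to 8020 in Low1. Each member of these 7 lists had reads in at least 1 library. Of their 48 members 1 had an unadjusted limma p below 0.05, dre-miR-203a-5p, against 6.36% of all miRNAs. In Low2_6 and Low2_7, where miR-10b-5p and its companions were high, the sums of all 7 lists lay within the Low1 range, but the smooth muscle sum was 567 in Low2_6 and 903 in Low2_7, above the median of 243 in Low2 and of 220 in Low1. In these 2 libraries all of it was dre-miR-143, with dre-miR-145-3p and dre-miR-145-5p at 0 in both libraries. The muscle sum was 1124 in Low2_6, the highest of Low2, and 798 in Low2_7. Their part in the values of these libraries was not tested. Immune-response miRNAs summed to 70060 to 109744 in Low2 and 53791 to 90665 in Low1. Germline-associated miRNAs were present in both groups, with a median of 485 normalised reads in Low2 and 561 in Low1 for dre-miR-34c-5p, which is known from mammalian spermatids and sperm. In such bulk sperm samples, fewer cells of a type and less RNA per cell cannot be told apart.

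Libraries were then compared as whole profiles. The distance of a library to the median profile of its group, as the root mean square difference over all miRNAs, was 0.827 ± 0.289 log2 units in Low2 (SD, n = 9) and 0.712 ± 0.290 in Low1 (SD, n = 10), a difference of 0.115 (two-sided exact permutation test, p = 0.396). Only the finished distances were permuted, and the group medians were not computed again. Distances within a group share a centre, so the p is approximate as a test of spread. The 2 highest distances were those of Low2_7 (1.32) and Low1_1 (1.26), and Low1_1 was the shallowest library. PC1 of these 19 libraries held 24.6% of the variance and set Low2_6 (18.6) and Low2_7 (22.3) apart from the others, which ran from -10.4 to 0.619. The difference of the group means was 5.86 (two-sided exact permutation test, p = 0.120). The median PC1 score was -0.385 in Low2 and -2.17 in Low1. Without pool 5, PC1 was computed again from the remaining libraries, and the difference on that new axis was -1.56.

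For piRNA clusters, the distance to the group median was 0.508 ± 0.164 log2 units in Low2 (SD, n = 6) and 0.324 ± 0.0787 in Low1 (SD, n = 6), a difference of 0.183 (two-sided exact permutation test, p = 0.0303), which is 0.121 after adjustment over the 4 tests of distance and PC1. As for miRNAs, only the finished distances were permuted, so these p-values are approximate as tests of spread. The Low2 distances ran from 0.348 to 0.777 and those of Low1 from 0.214 to 0.395, so that the groups overlapped. The highest was that of Low2_3, the shallowest piRNA library, with 5983071 reads. Low2_2, the next shallowest, had 7414024 reads and a distance of 0.516, and Low2_6, with 24353440 reads, had 0.614. The parts of depth and of the uneven pools were not tested. Without Low2_2, Low1_5 or Low1_10 the exact permutation p lay between 0.0519 and 0.0736. The SD of a cluster between libraries was larger in Low2 for 1109 of 1434 clusters, with a median SD of 0.393 in Low2 and 0.245 in Low1. PC1 held 31.6% of the variance, and its group means differed by 2.20 (two-sided exact permutation test, p = 0.734).

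**Figure D4:**
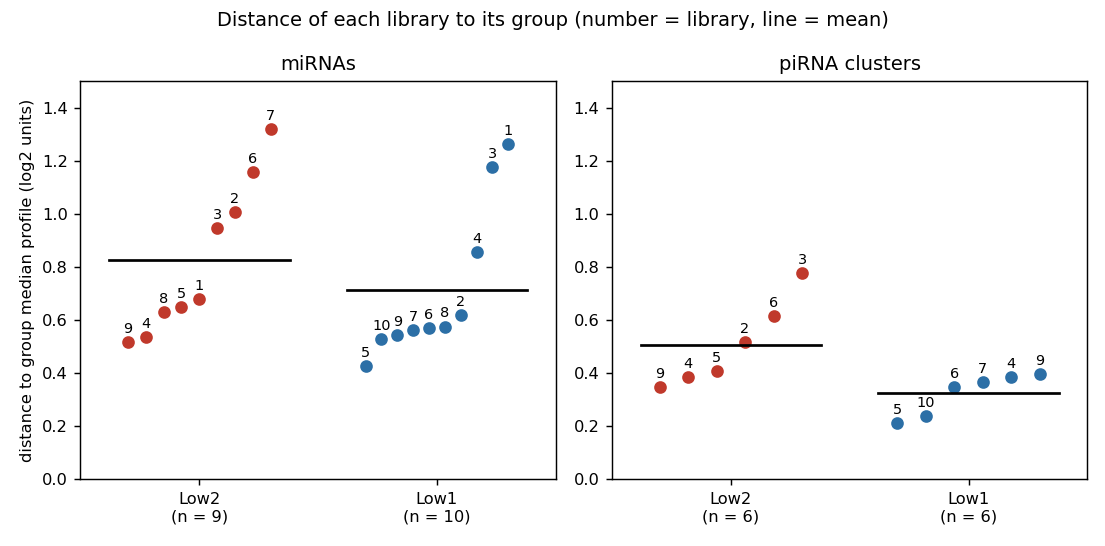
Distance of each library to the median profile of its own group (vertical axis, log2 units) over miRNAs (left panel) and piRNA clusters (right panel), Low2 in red and Low1 in blue. Numbers are library numbers and lines are means. In the miRNA panel the means are 0.827 in Low2 and 0.712 in Low1, and in the piRNA panel 0.508 in Low2 and 0.324 in Low1.

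The piRNA table holds 1434 clusters on the GRCz11 assembly, 532 from the piRNA Cluster Database and 902 predicted by proTRAC. Limma called 0 of 1434 (0%), with a smallest adjusted p of 0.770. Before adjustment, p was below 0.05 for 68 (4.74%), of which 33 were higher in Low2 and 35 were lower. The exact permutation test of ranks also called 0, with 44 at an unadjusted p below 0.05. The paper, which used DESeq2, reported a single differentially expressed cluster in its comparison of Low1 with Low2. The median log2 fold change was -0.04, and 622 clusters were higher in Low2. Of the database clusters 25 of 532 had an unadjusted p below 0.05, and their log2 fold changes had a median of -0.02. Of the predicted clusters transcribed from a single strand 35 of 722 did (median -0.05), and of those transcribed from both strands 8 of 180 (median -0.05). Chromosome 4, whose long arm is rich in repeats, held 303 clusters, 11 of them at an unadjusted p below 0.05, with a median of -0.03, the same as that of the 922 on other chromosomes. By position, 269 of the clusters overlapped another, and a read in such a place may be counted in each.

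The 3 clusters with the most reads varied widely within each group. The database cluster chr4:55793547-55813463 (19.9 kb) had 4154080 to 40329000 normalised reads in Low2 (median 6064910) and 4091080 to 10225400 in Low1 (median 6292940), and its highest value was that of Low2_3. The database cluster chr7:4067-8848 had 1896750 to 21647500 in Low2 (median 3281230) and 2005380 to 5330490 in Low1 (median 4274350), again with Low2_3 as the highest. In Low2_3 a read was worth 16.0 normalised reads. As a share of the reads of a library, the chr4 cluster held 42.1% in Low2_3, against 15.4% to 32.9% in Low1. The chr7 cluster held 22.6% in Low2_3, against 9.50% to 18.4% in Low1. A cluster on an unplaced scaffold, at positions 509 to 10420, had 611013 to 15177500 in Low2 (median 6180180) and 875697 to 19234300 in Low1 (median 3567600).

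Among the clusters lower in Low2, the smallest p was that of chr11:37007002-37018889, a predicted cluster transcribed from both strands. It had 1407, 2002, 1597, 2166, 1946 and 1446 normalised reads in Low2_2, Low2_3, Low2_4, Low2_5, Low2_6 and Low2_9, ranging from 1407 to 2166 (median 1771), against 1823 to 3150 in Low1 (median 2646). Its log2 fold change was -0.55 (SE 0.16, limma p = 0.00172, adjusted p = 0.770). chr16:14845000-14858022, a predicted single-strand cluster, had 3540 to 4298 in Low2 (median 3957) and 3936 to 6199 in Low1 (median 4811), with a log2 fold change of -0.31 (limma adjusted p = 0.770). Both clusters, the one on chr11 matched by its end coordinate, are named by the study from its comparison of High2 with Low1, so the Low1 libraries took part in that choice and the Low2 libraries did not. chr22:7565254-7577013 had medians of 1278 in Low2 and 1534 in Low1 (log2 fold change -0.34), chr4:26436000-26443887 423 in Low2 and 550 in Low1 (log2 fold change -0.45), and chr19:36623287-36630794 246 in Low2 and 367 in Low1 (log2 fold change -0.57). In 1 of the 1434 clusters (0.0697%) the groups did not overlap. It was chr22:30626000-30639019, named after its values were seen, with 465 to 594 normalised reads in Low2 and 595 to 829.1 in Low1, a log2 fold change of -0.40 (limma adjusted p = 0.770). The gap, from 594.2 in Low2_9 to 595.3 in Low1_5, was narrow. Low2_2 had 591.3, and a single read there was worth 7.49 normalised reads.

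Among those higher in Low2, chr19:10800007-10816911 had 476 to 3977 normalised reads in Low2 (median 2158) and 394 to 1367 in Low1 (median 545), a log2 fold change of 1.65 (SE 0.53, limma p = 0.00464, adjusted p = 0.770). Low2_4 was within the range of Low1, and the other 5 Low2 libraries were above it. This cluster overlaps a shorter database cluster, chr19:10803053-10812792, with a log2 fold change of 2.27, so the 2 values are not independent. chr5:747001-760987 had 1458 to 3207 in Low2 (median 2027) and 1120 to 1823 in Low1 (median 1437), a log2 fold change of 0.53. chr8:48673650-48677506 had 4348 to 9552 in Low2 (median 7348) and 3357 to 5546 in Low1 (median 4294), a log2 fold change of 0.67. chr18:32777075-32792025 had 1394 to 2187 in Low2 and 1076 to 1520 in Low1, a log2 fold change of 0.49. chr4:43701007-43707025 had 57.5 to 1204 in Low2 (median 190) and 38.1 to 105 in Low1 (median 86.4), and a log2 fold change of 1.60. The highest value, in Low2_5, was far above the next, 449 in Low2_6. The limma adjusted p was 0.770 for all 5.

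**Figure D5:**
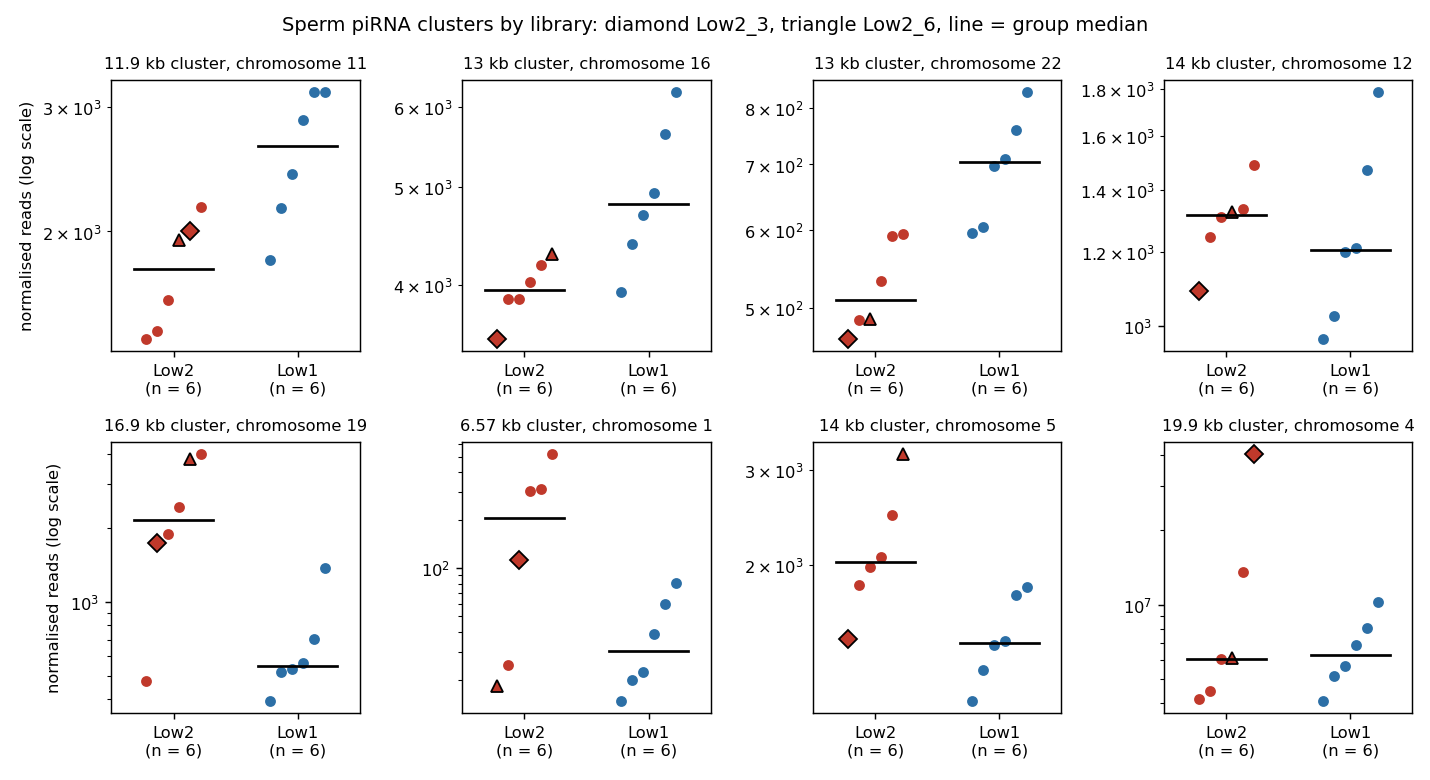
Normalised reads (log scale, vertical axis) of 8 piRNA clusters in each Low2 library (red, left, n = 6) and Low1 library (blue, right, n = 6), with group medians as lines. In the chromosome 22 cluster the groups do not overlap (465 to 594 in Low2, 595 to 829.1 in Low1), but the gap is narrower than a single read of Low2_3. The large chromosome 4 cluster reaches 40329000 in Low2_3 (diamond), where a read was worth 16.0 normalised reads.

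Of the clusters that the study names, 4 others were not called. The study named the chr12 cluster from High2 against Low1 and the chr1 cluster from Low1 against High1. Low1 libraries thus took part in both choices. chr12:14899002-14913024 had 1089 to 1490 normalised reads in Low2 and 967 to 1783 in Low1, a log2 fold change of 0.05 (SE 0.16, limma adjusted p = 0.972). chr1:57940016-57946585 had 18.3 to 517 in Low2 (median 207) and 14.7 to 80.9 in Low1 (median 30.3). In this cluster 4 Low2 libraries were above all Low1 libraries while Low2_4 and Low2_6 were within their range, and the log2 fold change was 1.74 (SE 0.77, limma adjusted p = 0.927). chr4:52720448-52740603 had medians of 103356 in Low2 and 123429 in Low1 (log2 fold change -0.08), and chr22:32643430-32648896 of 1254 in Low2 and 788 in Low1 (log2 fold change 0.15, or 0.04 without Low2_5 and 0.41 without Low2_6), with limma adjusted p of 0.978 and 0.972.

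The change with order in Low was set against that in High. This contrast equals that of High-first against Low-first males. A male sampled in both periods gave more than a single library to it. The fit treated such libraries as independent, so its p-values ignore this pairing. The difference of the order effects, Low2 minus Low1 against High2 minus High1, was called for 0 of 346 miRNAs in limma, with 28 at an unadjusted p below 0.05 and a smallest adjusted p of 0.511. For piRNA clusters it was called for 0 of 1434, with 119 at an unadjusted p below 0.05 and a smallest adjusted p of 0.169.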

How the data were processed

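Small RNA of zebrafish sperm was sequenced as single-end reads. The authors trimmed adaptors, matched reads exactly, using PatMaN, to miRBase mature miRNAs or to piRNA clusters, and counted them. The submitters' processing notes name DESeq2 and GRCz10, while the methods place the clusters on GRCz11. The deposited values are log2 values, log2 (normalised reads + 4), read from the values themselves, and both tables hold values for single libraries. Steps of 1 read gave whole reads in 13494 of 13494 miRNA values and 34406 of 34416 piRNA values (tolerance 0.02 reads).

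Low2 and Low1 were grouped by column name. They were compared with limma 3.58.1 in R 4.3.3 (all 4 groups, a trend, Benjamini-Hochberg adjustment, threshold 0.05, two-sided). Distances and PC1 used exact permutation tests in Python 3.11.15 with scipy 1.17.1. Named were the features past the threshold, those with the smallest p in each direction, those the study names, the most abundant, those whose ratio of means most exceeds that of medians, the 2 most abundant of each list, and miRNAs without overlap. The members and lists were chosen with earlier results of these data known. Read depth limits low miRNAs, and depth covers counting error only. Coordinates are those of the deposited names. Alternatives were another variance model, centred libraries, filters, pools, pseudocount 1, single libraries left out, limma-voom, rank tests and the public treatment field, and, after the data were seen, a negative binomial test, Low2_6 and Low2_7 or Low2_3 and Low2_6 left out, and only miRNAs read in each library. Each test was first tested on simulated data. The library distance and PC1 tests make up a family of 4.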

Additional observations from a re-analysis of the deposited data

Results flagged for a closer look

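Of 92 groups of libraries checked, 13 held a highest value set apart from the rest by more than the 95% limit of Dixon's test. That limit flags about 1 in 20 groups of normally distributed values. Most values here were unlogged normalised reads, and many of the features were picked by these same values. The count of 13 therefore cannot be set against 1 in 20 and is a description. In Low2, Low2_7 was the highest for dre-miR-129-5p (25313 normalised reads, next 9501), dre-miR-184 (58169, next 26637) and dre-miR-181a-5-3p (6764, next 3234). Low2_6 was the highest for dre-miR-203a-5p (16.2, next 5.87), and Low2_2 for dre-miR-202-3p (790.0, next 399). In Low1, Low1_3, a library of 166612 reads, was the highest for dre-let-7b (42048, next 21637), dre-miR-130c-5p (330.5, next 156) and dre-miR-457b-3p (22.0, next 6.24), and Low1_5 for dre-miR-203a-5p (1.74, next 0.507). dre-miR-10b-5p, dre-miR-183-5p, dre-miR-182-5p and dre-miR-30e-3p, with 2 high Low2 libraries each, did not pass this limit.

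Among piRNA clusters, Low2_5 was the highest of Low2 for chr4:43701007-43707025 (1204 normalised reads, next 449) and Low2_3 for chr4:55793547-55813463 (40329000, next 13529600). A read was worth 16.0 normalised reads in Low2_3. In Low1, Low1_9 was the highest for chr19:10800007-10816911 (1367, next 704) and Low1_6 for the cluster on an unplaced scaffold (19234300, next 6085760).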

How the results depend on the processing

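Limma called 0 miRNAs and 0 piRNA clusters under every alternative run (31 for miRNAs and 22 for clusters), and also with the public treatment field and in the rank test. The negative binomial model called 12 miRNAs with all libraries and 4 without Low2_6. At an unadjusted p under 0.05 the 22 miRNAs of the reported fit became 8 with only Low2 and Low1, 12 without pool 5, 2 with limma-voom, 10 by ranks, 9 without Low2_6 and Low2_7, 6 among miRNAs read in each library, 2 with the public field and 48 in the negative binomial model, and 14 to 35 with a library left out. The 68 clusters became 42 with the lowest 25% dropped, 44 without pool 5, 44 by ranks, 125 with pool as a covariate and 137 in the negative binomial model, and 38 to 99 with a library left out. The causes were not tested. Low2 and Low1 come from different males, and same-numbered libraries shared only a number (mean correlation of their deviations 0.0801 over 9 miRNA pairs and -0.0396 over 4 piRNA pairs, with 1 and 0 libraries best matched to their own number). A replicate block gave 0 calls in both tables, with 9 miRNAs and 131 clusters at an unadjusted p under 0.05.

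Without pool 5 the miRNA distance difference was -0.0398 and the PC1 difference -1.56. With a library left out the miRNA distance difference lay between 0.0434 and 0.178 and PC1 between 0.596 and 7.01, the highest without Low2_3 (exact permutation p = 0.0442). The piRNA distance difference was 0.159 with the lowest 25% dropped (exact permutation p = 0.0628), 0.167 without pool 5 (p = 0.0556, exact permutation) and 0.134 to 0.217 with a library left out. The piRNA PC1 difference lay between -5.77 (without Low2_3) and 7.27. PC1 was computed again for each set of libraries, so the PC1 differences lie on different axes. Of 641 alternative fold changes of 21 miRNAs 5 turned their sign. Without pool 5, dre-miR-129-5p was at -0.0438, dre-miR-181a-5-3p at -0.35 and dre-miR-183-5p at -0.13. Without Low2_6 and Low2_7, dre-miR-181a-5-3p was at -0.30 and dre-miR-183-5p at -0.079. Of 325 of 15 clusters 11 did. The log2 fold change of chr12:14899002-14913024 was -0.0106 with pool as a covariate and -0.0213 to 0.15 with a library left out, and that of chr4:52720448-52740603 was 0.023 without pool 5, 0.39 without Low2_3 and Low2_6, and -0.34 to 0.19 with a library left out.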

Other observations

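By medians, other miRNAs than those raised in Low2_6 and Low2_7 stood out. Among the 206 miRNAs with a median of at least 10 normalised reads in both groups, dre-miR-722 had the highest ratio of medians, 123 in Low2 over 52.1 in Low1 (2.36), followed by dre-miR-34c-3p with 31.1 over 14.8 (2.11) and dre-miR-15c with 319 over 157 (2.03). The lowest were dre-miR-727-3p, with 15.3 in Low2 and 53.6 in Low1 (0.285), and dre-miR-202-3p, with 111 in Low2 and 305 in Low1 (0.365). dre-miR-205-5p, an epithelial miRNA, had 111 in Low2 and 206 in Low1. Their ranges overlapped between the groups, as for dre-miR-722 with 33.3 to 205 in Low2 and 33.0 to 155 in Low1.

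Of the 346 miRNAs, 155 had reads in all 19 libraries and 4 in none. Reads in Low2 alone were found for 6 miRNAs and in Low1 alone for 6, with at most 3 reads in a library.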
